A study of Mus musculus with 8 samples.

Results

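The NR4A and EGR transcription factors are products of immediate early genes, which cells switch on within minutes of a stimulus and without making new protein first. NR4A proteins are orphan nuclear receptors that bind DNA without needing a known ligand, and EGR proteins bind GC-rich sites through zinc fingers. In lymphocytes both families are known as readouts of antigen receptor, calcium, cAMP and MAP kinase signals. The members described here were 6 genes, Nr4a1, Nr4a2, Nr4a3, Egr1, Egr2 and Egr3, taken by symbol from a table of 27179 genes. The set was chosen by the LP and PP levels of Nr4a1 and Nr4a2 in these same libraries (LP, lamina propria; PP, Peyer's patches), so every tissue value of a member is a description with no test.

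LTi (lymphoid tissue inducer) cells, innate lymphocytes that help lymphoid organs to form, were isolated by sorting from C57BL/6 mice. Live lineage-negative CD127+ CCR6+ cells without KLRG1, NK1.1 or NKp46 were taken from the small intestine lamina propria (LP) or from Peyer's patches (PP). The 4 groups were Tcf7-KO LP, control LP, Tcf7-KO PP and control PP, with 2 libraries each. Tcf7-KO mice carried Tcf7fl/fl and a lineage-restricted Cre, and controls were Tcf7+/+. The labels do not say whether controls carried Cre, how old the mice were or whether mice were pooled. Nor is it stated that the 2 libraries of a group came from separate animals, so p-values measure only the spread between these libraries. Values are RPKM, read counts scaled by transcript length and by library total, from Smart-seq2 RNA-seq, which amplifies cDNA from few cells.

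Depth was estimated at 37.6 to 42.9 M reads per library. Tcf7, the targeted gene, stood at 237 and 215 RPKM in Tcf7-KO LP against 229 and 246 RPKM in control LP, and at 356 and 337 RPKM in Tcf7-KO PP against 242 and 85.4 RPKM in control PP. The Tcf7-KO minus control log2 difference was -0.07 ± 0.48 in LP and 1.26 ± 0.48 in PP (SE, limma adjusted p = 1 and 0.365), so no loss of Tcf7 RPKM was detected in the libraries labelled Tcf7-KO. Values per gene cannot show whether 1 part of the gene was deleted, and the genotype rests on the labels. The 11 ILC3 and LTi markers used were all detected, summing to 7284 to 8908 RPKM in LP and 6188 to 7246 RPKM in PP. The LP sum was carried by Il22, at 4047 to 5318 RPKM in LP and 460 to 865 RPKM in PP. Of the 11, Il22 and Tnfsf11 had all LP libraries above all PP libraries, and Lta, Ltb, Id2 and Cxcr5 had all LP libraries below. Over all genes kept by the filter on low values described below, the shares were 6.54% above and 7.05% below. In a bulk library, fewer cells of a type and less RNA per cell cannot be told apart.

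All NR4A genes stood far higher in LP than in PP in both genotypes, while Egr1 did not, and Egr2 and Egr3 were near the detection limit outside a few LP libraries. Nr4a1, which encodes NUR77, a receptor widely used as a reporter of T cell receptor signalling, lies on chromosome 15 from 101253902 to 101274795 (GRCm38, as are all positions here). It had 1661 and 1317 RPKM in Tcf7-KO LP and 1322 and 1551 RPKM in control LP, against 72.5 and 22.5 RPKM in Tcf7-KO PP and 59.5 and 66.3 RPKM in control PP. Every LP library lay above every PP library, and the lowest LP value was far from the highest PP value. The LP minus PP difference of log2(RPKM + 1) was 5.15 ± 0.51 (SE, n = 2 against 2) in Tcf7-KO and 4.49 ± 0.51 in control libraries. Here and below, the fit pools the spread of all 4 groups, so both genotypes share the same SE. Within a library, Nr4a1 ranked 38th to 55th of all genes by RPKM in LP, and 1399th to 3842nd in PP.

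Nr4a2 (chromosome 2, 57106830 to 57124003) encodes NURR1, known for its role in dopamine neurons and induced in activated lymphocytes. It had 165 and 73.3 RPKM in Tcf7-KO LP and 236 and 224 RPKM in control LP, against 3.08 and 0.654 RPKM in Tcf7-KO PP and 0.559 and 0.652 RPKM in control PP. The tissues did not overlap, and Tcf7-KO LP replicate 2 was the lowest LP library. The log2(RPKM + 1) difference, LP minus PP, was 5.42 ± 0.84 (SE) in Tcf7-KO and 7.17 ± 0.84 in control libraries. Because a pseudocount of 1 flattens values below 1 RPKM, the ratio of mean RPKM is also given: LP over PP was 63.9 in Tcf7-KO and 380.0 in control libraries.

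Nr4a3 (chromosome 4, 48045078 to 48086447) encodes NOR1, whose function in lymphocytes overlaps that of NUR77. It had 66.0 and 126 RPKM in Tcf7-KO LP and 144 and 159 RPKM in control LP, against 0.48 and 8.4 RPKM in Tcf7-KO PP and 1.32 and 0.37 RPKM in control PP. The tissues did not overlap here either, and Tcf7-KO PP replicate 2, the library with the lowest Nr4a1, had the highest PP value of Nr4a3. The log2(RPKM + 1) difference, LP minus PP, was 4.63 ± 1.05 (SE) in Tcf7-KO and 6.42 ± 1.05 in control libraries. Without Tcf7-KO PP replicate 2 the Tcf7-KO difference was 5.96, and without replicate 1 it was 3.29.

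**Figure D1:**
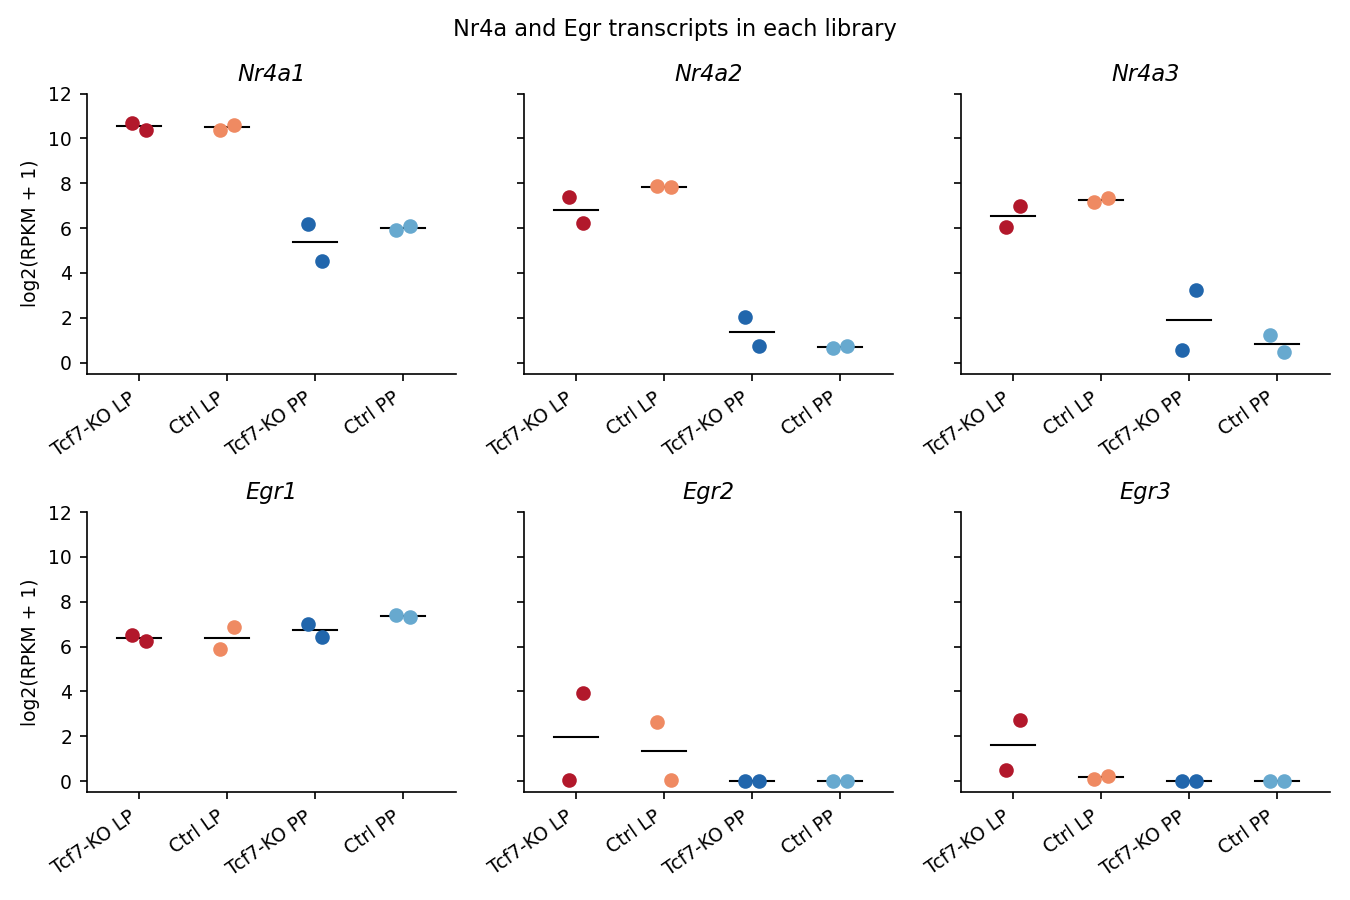
Level of each member as log2(RPKM + 1) (vertical axis) in the 4 groups (horizontal axis); points are libraries and bars are means of 2. For Nr4a1, Nr4a2 and Nr4a3 all LP points lie above all PP points, whereas the Egr1 points of the tissues overlap and Egr2 exceeds 2 in 2 LP libraries and Egr3 in 1.

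The summed level of the NR4A genes was 1892 and 1516 RPKM in Tcf7-KO LP and 1701 and 1935 RPKM in control LP, against 76.1 and 31.5 RPKM in Tcf7-KO PP and 61.4 and 67.3 RPKM in control PP. RPKM is scaled per length, so levels can be set beside each other. Nr4a1 was the most abundant NR4A transcript in all 8 libraries, and in LP it made up 87.8% and 86.9% of the NR4A sum in Tcf7-KO and 77.7% and 80.2% in control libraries. In PP the share was 95.3% and 71.3% in Tcf7-KO and 96.9% and 98.5% in control libraries. The LP levels of Nr4a2 and Nr4a3 followed, 73.3 to 236 RPKM and 66.0 to 159 RPKM over the 4 libraries, ranges that overlap.

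The promoters of the NR4A genes are shown because these genes stood higher together in LP, and because the family is known to respond to cAMP through CREB. RefSeq promoters (GRCm38.p6, 250 bases before to 50 after an annotated start) were searched here for Nr4a1, Nr4a2, Nr4a3 and Egr2. No promoter of Egr1 or Egr3 was among those searched, so nothing is said here of their motifs. The motifs searched on both strands were the CArG box bound by SRF, the full CREB site TGACGTCA, its shorter core TGACG, the EGR site GCGNGGGCG, the NR4A site AAAGGTCA and the AP-1 site TGANTCA. A full CREB site also holds the core. Capitals mark every match, read 5′ to 3′ on the gene's strand, at chr15:101266596-101266895 (plus strand), chr2:57123954-57124253 (minus strand), chr4:48045055-48045354 (plus strand) and chr10:67537619-67537918 (plus strand). For Nr4a1, Nr4a3 and Egr2 the start used lies inside the gene's annotated span, and for Nr4a2 at its end.
Nr4a1: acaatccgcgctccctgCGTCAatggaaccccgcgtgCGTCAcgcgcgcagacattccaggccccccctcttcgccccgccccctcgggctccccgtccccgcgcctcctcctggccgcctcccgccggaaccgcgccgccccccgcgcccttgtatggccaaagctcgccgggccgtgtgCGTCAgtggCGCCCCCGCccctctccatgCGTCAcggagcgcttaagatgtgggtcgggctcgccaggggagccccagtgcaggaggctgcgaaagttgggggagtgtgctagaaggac
Nr4a2: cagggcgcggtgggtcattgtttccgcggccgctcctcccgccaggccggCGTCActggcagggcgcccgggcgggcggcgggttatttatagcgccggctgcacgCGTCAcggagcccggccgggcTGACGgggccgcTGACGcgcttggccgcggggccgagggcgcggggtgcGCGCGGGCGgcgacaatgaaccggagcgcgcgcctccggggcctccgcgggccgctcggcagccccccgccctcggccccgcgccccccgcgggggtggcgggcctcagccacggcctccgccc
Nr4a3: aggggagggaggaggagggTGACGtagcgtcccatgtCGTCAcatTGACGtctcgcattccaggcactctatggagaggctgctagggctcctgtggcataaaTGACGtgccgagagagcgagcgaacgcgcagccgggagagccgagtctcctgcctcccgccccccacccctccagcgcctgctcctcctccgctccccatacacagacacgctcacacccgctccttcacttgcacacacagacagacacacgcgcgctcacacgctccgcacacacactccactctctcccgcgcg
Egr2: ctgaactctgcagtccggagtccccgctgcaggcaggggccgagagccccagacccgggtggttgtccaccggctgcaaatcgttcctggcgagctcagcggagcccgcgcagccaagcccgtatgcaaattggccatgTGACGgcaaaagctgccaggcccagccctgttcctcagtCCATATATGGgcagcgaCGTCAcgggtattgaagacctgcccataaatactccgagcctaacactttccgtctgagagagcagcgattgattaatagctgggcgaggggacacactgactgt

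Each NR4A promoter held 4 CREB cores. Of the 32851 promoters searched, 20.8% held at least 1 such core and 0.231% held at least 4. The cut of 4 is the count found in the NR4A promoters themselves, so shares at that cut are descriptions with no test. Among the 9690 promoters with at least 60% G and C, these shares were 31.6% and 0.557%. The NR4A promoters had 72.3%, 81.7% and 64.7% G and C for Nr4a1, Nr4a2 and Nr4a3. Nr4a1 and Nr4a2 each held 1 EGR site, which 5.55% of all promoters held. For this GC-rich site no share was computed among promoters with at least 60% G and C. The full CREB site, the NR4A site and the AP-1 site, held by 1.79%, 1.51% and 7.81% of promoters, had no match in these windows. Egr2 has 5 annotated starts, and the promoter printed is 1 of 4 with a CArG box, a motif held by 1.63% of promoters. Those 4 windows overlap or lie close together. A match describes letters in a window and does not show that a factor binds there.

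**Figure D2:**
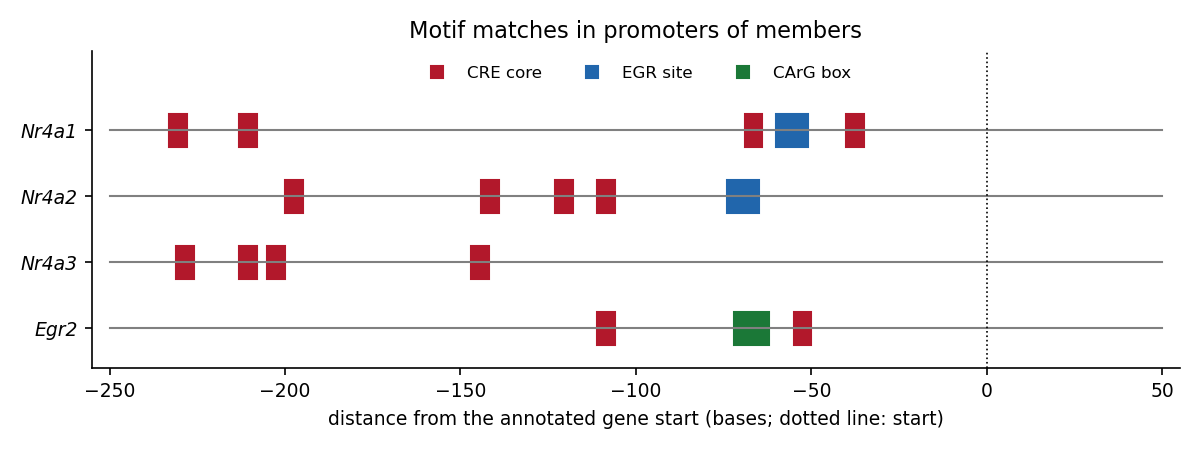
Positions of motif matches (coloured boxes) in the printed promoters, by distance in bases from the annotated gene start (horizontal axis, dotted line at the start). The NR4A promoters carry 4 CREB cores (CRE core) each, Nr4a1 and Nr4a2 also an EGR site, and Egr2 a CArG box with 2 cores.

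Egr1, an EGR factor gene induced through SRF and MAP kinase signalling, is on chromosome 18 from 34861207 to 34864956. It had 91.7 and 75.7 RPKM in Tcf7-KO LP and 58.6 and 117 RPKM in control LP, against 127 and 86.1 RPKM in Tcf7-KO PP and 168 and 158 RPKM in control PP. The 4 LP libraries overlapped the 4 PP libraries, although both control LP values lay below both control PP values, as in 21.4% of kept genes. The log2(RPKM + 1) difference, LP minus PP, was -0.33 ± 0.47 (SE) in Tcf7-KO and -0.97 ± 0.47 in control libraries, and the first turned to 0.13 after median-of-ratios rescaling. The ratio of Nr4a1 to Egr1 RPKM in the same library, which no scaling between libraries can change, was 18.1 and 17.4 in Tcf7-KO LP and 22.6 and 13.3 in control LP, against 0.57 and 0.261 in Tcf7-KO PP and 0.355 and 0.421 in control PP. Egr1 was thus the more abundant of the pair in every PP library and Nr4a1 in every LP library.

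Egr2 (chromosome 10, 67534469 to 67542188) and Egr3 (chromosome 14, 70077317 to 70082613), which restrain T cell activation and are induced by calcium and NFAT, were low. Egr2 had 0.0321 and 14.2 RPKM in Tcf7-KO LP and 5.25 and 0.0259 RPKM in control LP. In PP it had 0.00879 and 0.0168 RPKM in Tcf7-KO, and it was listed at 0 and had 0.00766 RPKM in control. One replicate of each LP group thus held nearly all of the Egr2 signal, about 1744 and 632 reads by the depth estimate, while the other 6 libraries held at most about 4.19 reads.

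Egr3 had 0.403 and 5.6 RPKM in Tcf7-KO LP and 0.0735 and 0.18 RPKM in control LP. In PP it was listed at 0 and had 0.0176 RPKM in Tcf7-KO, and it was listed at 0 in both control libraries. A count of 0 there allows up to 0.0194 and 0.017 RPKM, the value of 3 reads at the estimated depth of control PP replicates 1 and 2, which covers counting error only. Tcf7-KO LP replicate 2 was the highest library for both Egr2 and Egr3.

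**Figure D3:**
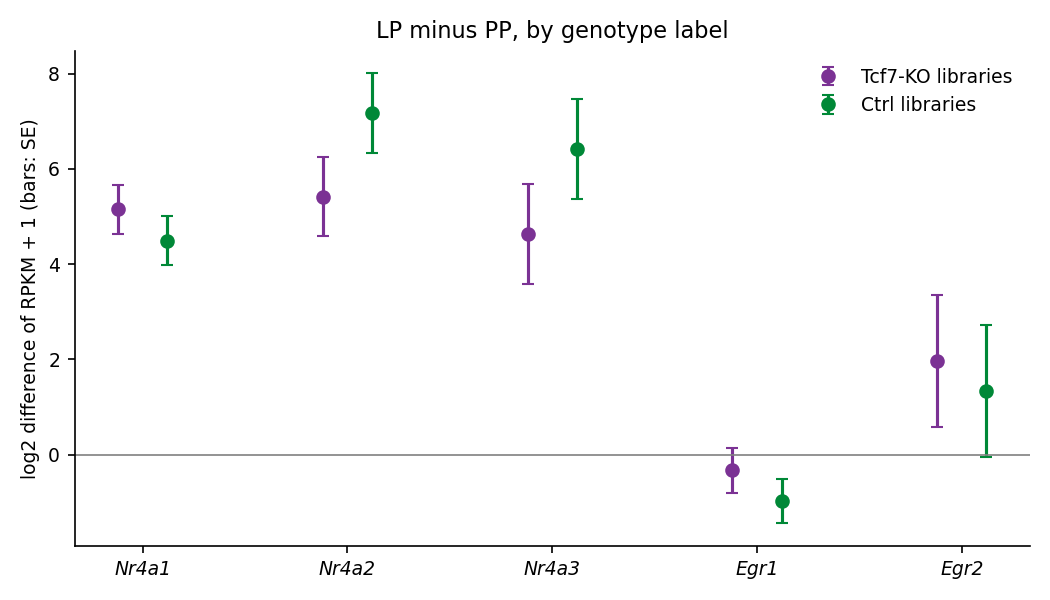
Difference of log2(RPKM + 1), LP minus PP (vertical axis), for the 5 members kept by the filter on low values, in Tcf7-KO and control libraries. Bars are SE of the fit, with 2 libraries a group and the spread pooled over all 4 groups. The NR4A genes lie between 4.49 and 7.17, Egr1 at -0.33 (0.13 after median-of-ratios rescaling) and -0.97, and Egr2 at 1.97 and 1.34 with bars of 1.38.

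Of the 6 members, 5 passed the filter of at least 1 RPKM in at least 2 libraries, and Egr3 did not. Egr2 passed only through control LP replicate 1 and Tcf7-KO LP replicate 2, so its place among the kept genes comes from LP. All 4 LP libraries lay above all 4 PP libraries for Nr4a1, Nr4a2, Nr4a3 and Egr2 among the 5 kept, and for Egr3 as well. That pattern was met by 6.54% of the 10541 genes kept, and by 4.8% of the 15887 genes above 0 in any library. Since Nr4a1 and Nr4a2 are the genes the set was chosen by, these shares are given as a description with no test. The reverse, all LP libraries below all PP libraries, was met by 7.05% of genes kept and by none of the 5 members kept. Within one genotype, both LP libraries lay above both PP libraries for these same 4 members, as for 17.5% of genes kept in Tcf7-KO and 26.0% in control libraries. For Egr2 and Egr3 it rests in part on libraries with only a few reads. By size of the average LP minus PP difference among the genes kept, Nr4a2 ranked 9th, Nr4a3 21st and Nr4a1 62nd, Egr2 1323rd and Egr1 6955th. The Tcf7-KO and control comparisons of tissue share no library. Both went into the choice of members, so neither is a check of the other.

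RefSeq annotates LOC105244150 across the start of Nr4a2, and the noncoding gene Gm32255 across part of Egr2. Whether the counting used strand is not stated, so reads of these overlapping genes cannot be told apart.

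The other immediate early genes had the LP and PP pattern of the NR4A genes in part. Like the other lists here, theirs was drawn up with earlier results of these data known, so its shares are descriptions with no test. Of 31 on the list, 30 were kept, and for 15 of them (50.0%, against the 6.54% of all kept genes) every LP library lay above every PP library. The reverse held for 1, Jun. Their median LP minus PP difference was 2.07 on the log2(RPKM + 1) scale, against -0.1 over all kept genes. The most abundant were Junb, Jun, Fos and Nfkbia. Junb, an AP-1 subunit, had 9650.5 and 7624 RPKM in Tcf7-KO LP and 8075 and 7367 RPKM in control LP, against 2170 and 1979 RPKM in Tcf7-KO PP and 2956 and 2695 RPKM in control PP.

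The other AP-1 genes of the list differed among themselves. Fosb averaged 405 RPKM in LP and 74.0 RPKM in PP, and Fosl2 averaged 103 RPKM in LP and 4.09 RPKM in PP, both with all LP libraries above. Jund averaged 155 RPKM in LP and 65.6 RPKM in PP, with overlap. Fos averaged 1052 RPKM in LP and 1593 RPKM in PP, with overlapping libraries, and Jun averaged 717 and 2136 RPKM in LP and PP, with all LP libraries below. Nfkbia, the NF-kB inhibitor that NF-kB itself induces, averaged 1759 RPKM in LP and 612 RPKM in PP, with all LP libraries above. The extremes of the list, named after their values were seen, were the stress factor Atf3 (6.03 on the log2 scale, with all LP libraries above) and the MAP kinase phosphatase Dusp2 (-2.79, with overlap).

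**Figure D4:**
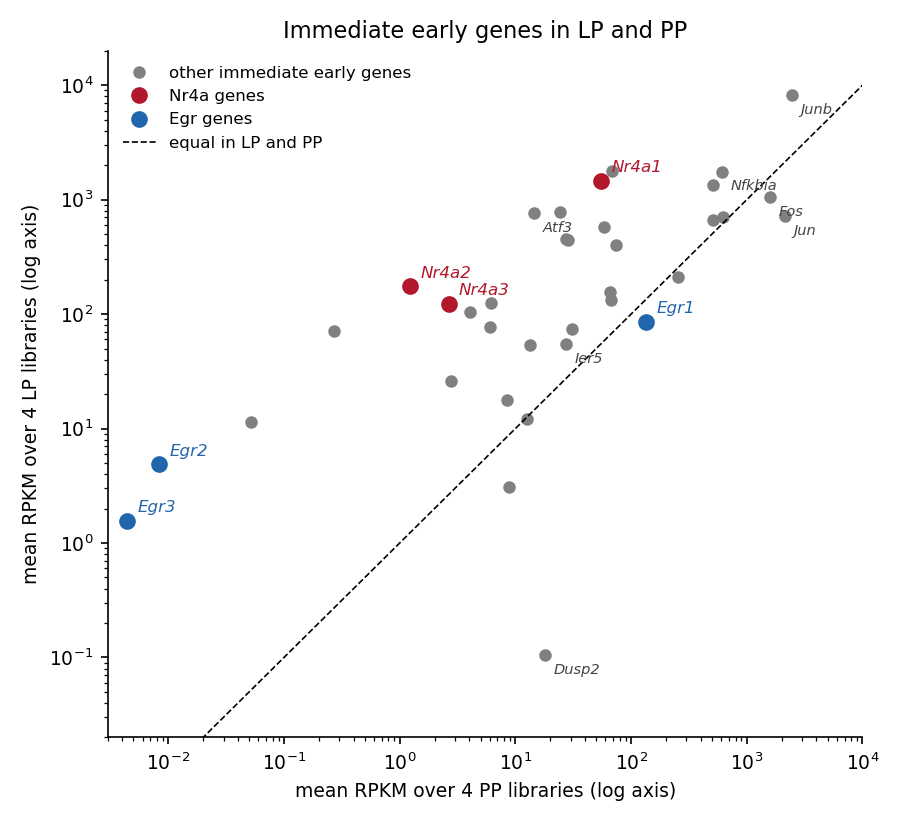
Mean RPKM over 4 LP libraries (vertical, log axis) against mean RPKM over 4 PP libraries (horizontal, log axis) for the NR4A genes, the EGR genes and 30 other immediate early genes; the dashed line marks equal levels. Nr4a1 (1463 RPKM in LP and 55.2 RPKM in PP) lies far above the line and Egr1 (85.6 RPKM in LP and 135 RPKM in PP) just below it.

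Among members of factor families known to induce these genes (SRF and its partners, CREB and its co-activators, MEF2 and NFAT), 17 of 19 were kept. Membership of a family does not show that a gene acts as an inducer here. Crem, a cAMP-induced member of the CREB family, was the 1 whose LP libraries all lay above PP (5.88% of the list, against 6.54% of kept genes), at 901 and 26.9 RPKM on average in LP and PP. Elk3, an SRF partner, was the 1 with all LP libraries below, at 5.02 and 29.8 RPKM. The list's median LP minus PP difference was 0.08. Nfatc1, Crtc2 and Mef2d, the next most abundant, averaged 72.4, 39.6 and 38.3 RPKM in LP, against 100.5, 52.1 and 21.8 RPKM in PP, each with overlap. Of the partners, the EGR co-repressor gene Nab1 averaged 18.1 and 2.39 RPKM in LP and PP with all LP libraries above, its relative Nab2 8.69 and 38.7 RPKM with overlap, and Rxrb, a dimer partner of NUR77, 8.25 and 0.33 RPKM with overlap.

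Of 25 genes linked to EGR or NR4A factors in lymphocytes, 21 were kept. Of these, 5 (23.8%, against 6.54% of all kept genes) had all LP libraries above all PP libraries. The most abundant were Pdcd1, Cdkn1a, Bhlhe40 and Socs1. Cdkn1a, a cell cycle inhibitor gene, averaged 1322 RPKM in LP and 54.7 RPKM in PP, Bhlhe40, a transcription factor gene, 1157 and 159 RPKM, and Socs1, a cytokine signalling inhibitor gene, 385 and 137 RPKM, all without overlap. Pdcd1, which encodes PD-1, averaged 1187 and 393 RPKM with overlap. The genes were listed from general knowledge and do not show that a factor acts on them here.

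Genes whose pattern over the 8 libraries was most like a member were found by Pearson r of log2(RPKM + 1) among the 7137 or 7138 genes that averaged 5 RPKM or more. This r is mostly set by the split into tissues, with 4 libraries in each, too few to test a relation within one. For Nr4a1 the highest r were those of Nabp1 (0.992), Tob2 (0.99) and Cbarp (0.99). For Nr4a2 they were those of Zswim4 (0.996) and of the AP-1 genes Fosl2 (0.991) and Fosb (0.989). For Nr4a3 they were those of Serpinb6b (0.989), Frat1 (0.982) and Gpr183 (0.978), an oxysterol receptor gene known to position innate lymphoid cells. Egr1 was nearest to Cnppd1 (0.97), Uri1 (0.954) and Emg1 (0.952), all higher on average in PP. Egr2 was nearest to Defa39 (0.999), Mir5125 (0.986) and Foxc2 (0.953), which are matched on the 2 LP libraries that hold Egr2.

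Markers of other cells also differed between tissues, and their part in the member differences was not tested. The 8 B and plasma cell markers summed to 861 to 1482 RPKM in LP and 558 to 668 RPKM in PP, led by Jchain, while the B cell factor gene Pax5 was listed at 0 in all libraries and Ms4a1 had 0.0497 to 0.0694 RPKM in LP. The 8 T cell markers summed to 78.5 to 211 RPKM in LP and 245 to 448 RPKM in PP. Cd4 was the largest part in each library, at 48.7 to 180 RPKM in LP and 170 to 318 RPKM in PP. Cd3d, Cd3e and Cd3g lay between 0.0574 and 14.3 RPKM in LP and between 0.0772 and 111 RPKM in PP. The 7 stromal and endothelial markers summed to 28.1 to 64.4 RPKM in LP and 78.3 to 205 RPKM in PP, with Col1a1, Col1a2, Pdgfra and Cdh5 at 0 throughout. The 10 myeloid markers summed to 0.305 to 99.9 RPKM in LP and 0.749 to 65.3 RPKM in PP, with S100a8, S100a9 and C1qa at 0. The 9 epithelial markers summed to 72.5 to 271 RPKM in LP and 149 to 488 RPKM in PP, and the 6 markers of NK cells and ILC1 to 21.2 to 84.7 RPKM and 0.549 to 75.1 RPKM, with Ncr1 and Eomes at 0. The 6 ILC2 markers summed to 147 to 240 RPKM in LP and 51.9 to 120 RPKM in PP, with Il5 and Il13 at 0 Areg with all LP libraries above, and Gata3 with all LP libraries below, at 24.2 to 43.6 RPKM in LP and 44.7 to 119 RPKM in PP. Apart from Areg and Jchain, no gene of these lists of other cells had all LP libraries above all PP libraries. The lists of B and plasma, T, myeloid, and stromal and endothelial cells each had 1 gene with all LP libraries below. Over all kept genes the shares were 6.54% above and 7.05% below. The myeloid gene, Adgre1, had at most 0.00791 RPKM in LP and as little as 0.00797 RPKM in PP. The T cell gene, Cd5, had at most 0.0378 RPKM in LP and as little as 0.07215 RPKM in PP. Both splits thus rest in part on values near 0.

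Heat shock genes, which rise in stressed cells, had a median LP minus PP difference of 0.15 over 10 of 11 kept. The median over all kept genes was -0.1. Of the 10, 2 had all LP libraries above all PP libraries, against 6.54% of all kept genes. The 2 were Hsp90aa1, at 84.9 RPKM in LP and 44.5 RPKM in PP on average, and Dnaja1, at 47.5 and 12.7 RPKM. Hsp90ab1, Hspa8, Dnajb1 and Hspe1, the most abundant, averaged 559, 162, 83.1 and 62.0 RPKM in LP, against 499, 142, 144 and 87.9 RPKM in PP. Their part in the member differences was not tested.

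The genotype comparisons were tested, with limma across all 10541 genes kept and Benjamini-Hochberg adjustment. They share libraries with the tissue differences behind the choice of members. No member passed in either tissue, where 0.0285% of genes passed in LP and 0.36% in PP. None of the 5 kept had an unadjusted limma p under 0.05 either, against 5.27% of kept genes in LP and 11.4% in PP. In LP, Nr4a1 averaged 1489 ± 243 RPKM in Tcf7-KO and 1436 ± 162 RPKM in control libraries (SD, n = 2), a log2 difference of 0.05 ± 0.51 (SE, limma adjusted p = 1) with a 95% interval of -1.16 to 1.26. In PP it averaged 47.5 ± 35.4 RPKM in Tcf7-KO and 62.9 ± 4.82 RPKM in control libraries (-0.62 ± 0.51, limma adjusted p = 0.699, interval -1.83 to 0.59). The PP difference turned to 0.20 without Tcf7-KO PP replicate 2.

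Nr4a2 and Nr4a3 were the members with both Tcf7-KO LP libraries below both control LP libraries, a pattern of 20.3% of kept genes. Nr4a2 averaged 119 ± 65.1 RPKM in Tcf7-KO LP and 230.2 ± 8.2 RPKM in control LP (SD), a log2 difference of -1.06 ± 0.84 (SE, limma adjusted p = 1, interval -3.03 to 0.92). Nr4a3 averaged 95.9 ± 42.3 and 152 ± 11.1 RPKM in Tcf7-KO LP and control LP (-0.72 ± 1.05, limma adjusted p = 1, interval -3.2 to 1.75). In PP both Tcf7-KO values of Nr4a2 lay above both control values, as in 22.7% of kept genes, although 0.654 and 0.652 RPKM were nearly equal, and Nr4a3 overlapped. The PP differences had the other sign, 0.69 ± 0.84 for Nr4a2 and 1.07 ± 1.05 for Nr4a3 (limma adjusted p = 0.792 and 0.735), and the second turned to -0.27 without Tcf7-KO PP replicate 2.

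For Egr1, both Tcf7-KO PP libraries lay below both control PP libraries, as in 14.8% of kept genes, with means of 107 ± 29.1 RPKM in Tcf7-KO and 163 ± 7.11 RPKM in control libraries (SD). The log2 difference was -0.63 ± 0.47 (SE, limma adjusted p = 0.693, interval -1.73 to 0.47). In LP it was 0.01 ± 0.47 (limma adjusted p = 1, interval -1.09 to 1.11). Egr2 had 0.64 ± 1.38 in LP, from 1 high library in each group, and 0.01 ± 1.38 in PP (limma adjusted p = 1 in both), where both Tcf7-KO values lay above both control values at about 1.06 and 2.08 reads by estimate. The SE is pooled over all 4 groups, so that of Egr2 in PP also holds the spread of the LP libraries. With the PP groups alone, this SE was 0.05. Egr3, kept only with no filter, had 1.44 ± 0.7 in LP (limma adjusted p = 0.933) and both Tcf7-KO LP values above both control LP values, as in 12.4% of genes above 0 in any library and 15.3% of genes kept.

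**Figure D5:**
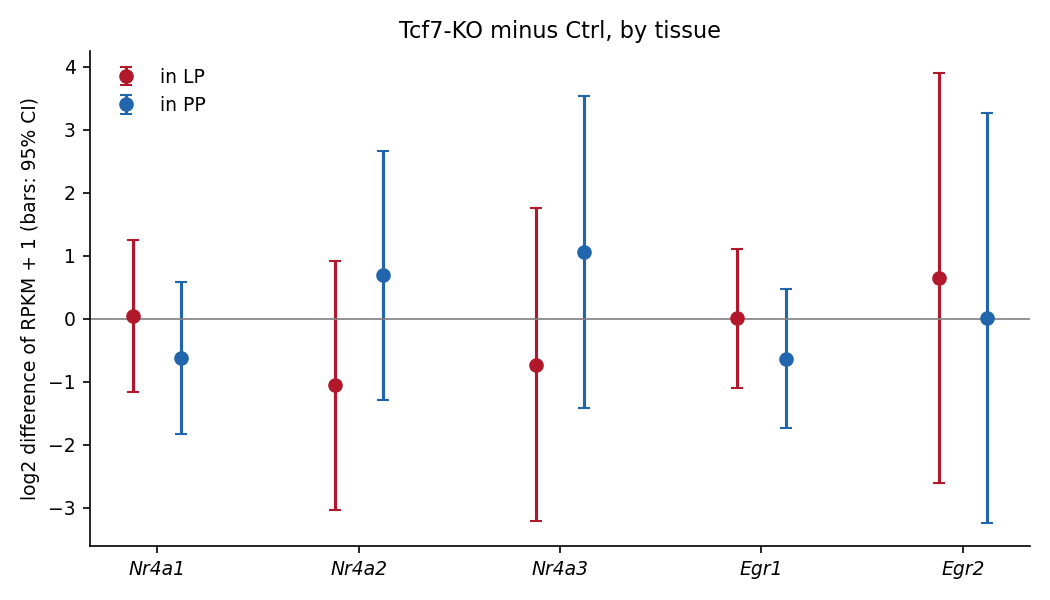
Difference of log2(RPKM + 1), Tcf7-KO minus control (vertical axis), in LP and in PP for the 5 members kept. Bars are 95% intervals of the limma fit, with 2 libraries a group and the spread pooled over all 4 groups. All 10 intervals include 0, and the narrowest, for Egr1, reach from -1.09 to 1.11 in LP and from -1.73 to 0.47 in PP.

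The interaction, in which the PP genotype effect was subtracted from the LP one, was 0.67 ± 0.73 for Nr4a1, -1.75 ± 1.18 for Nr4a2, -1.79 ± 1.48 for Nr4a3, 0.64 ± 0.66 for Egr1 and 0.63 ± 1.95 for Egr2 (SE). None of the 5 passed (limma adjusted p from 0.734 to 0.975), where 0.0285% of kept genes did. Averaged over tissues, the genotype effects of these 5 members lay between -0.31 and 0.33 with limma adjusted p from 0.872 to 0.982, where 0.152% of kept genes passed. None of the 5 had an unadjusted limma p under 0.05 for the interaction or the average, against 8.75% and 9.33% of kept genes.

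Of the listed genes outside the family, Ier5, an immediate early gene known to act on heat shock factor, was the 1 that passed a genotype test. It had 47.5 and 62.0 RPKM in Tcf7-KO PP against 0.314 and 0.551 RPKM in control PP, a log2 difference of 5.27 ± 0.69 (SE, limma adjusted p = 0.0404). The call was lost in 12 of 17 alternatives, among them each left-out library and median-of-ratios rescaling, with limma adjusted p from 0.0202 to 0.357 over all of them. In LP it had 33.7 and 24.8 RPKM in Tcf7-KO and 94.1 and 65.3 RPKM in control libraries (-1.41 ± 0.69, limma adjusted p = 1). The other 29 immediate early genes kept, and all kept genes of the inducing factor, partner, linked gene and heat shock lists, did not pass in PP, in LP, on average or for the interaction. At an unadjusted limma p under 0.05, the immediate early list, Ier5 included, had 2 of 30 genes in LP and 10 in PP, where 5.27% and 11.4% of all kept genes lay under that p. The list of linked genes had 1 of 21 in LP and 9 in PP, the inducing factors 1 of 17 in LP and 2 in PP, the heat shock genes 2 of 10 in LP and 0 in PP, and the partners 0 of 3 in both. The immediate early list had median genotype differences of -0.06 in LP and 0.09 in PP, against -0.06 and 0.16 over all kept genes. The linked genes had medians of -0.32 in LP and 1.69 in PP, the inducing factors -0.01 and 0.37, the partners 0.57 and 0.58, and the heat shock genes 0.28 and 0.21. For the interaction, the median was -2.63 over the linked genes, -0.03 over the immediate early list, -0.7 over the inducing factors, 0.51 over the partners and 0.4 over the heat shock genes, against -0.39 over all kept genes. Among the most abundant linked genes, Pdcd1 had 658 and 763 RPKM in Tcf7-KO PP against 143 and 6.47 RPKM in control PP (4.44, limma adjusted p = 0.186), and Cdkn1a had 87.0 and 99.4 RPKM in Tcf7-KO PP against 5.44 and 27.0 RPKM in control PP (2.81, limma adjusted p = 0.135). Bhlhe40 and Socs1 had the other sign in PP, at -0.35 and -0.84 (limma adjusted p = 0.754 and 0.426).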

How the data were processed

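The 8 RNA libraries of sorted LTi cells fall into 4 groups of 2 by their labels. Values deposited by the authors are on a log2(RPKM + 1) scale, with 0.0001 written for 0, which was read as 0. Per-gene counting used featureCounts (Subread) and mm10, per the submitters' processing notes. No source used here names the aligner, the versions, the annotation or the strand setting. After undoing log2, RPKM times exon length in kilobases summed to 0.966 to 1.09 of the total that the definition of RPKM gives per library, against 11.6 to 16.2 after undoing a natural logarithm. Depth was estimated from 364 genes whose values above 0 lay within 25% of each other and were read as 1 read (quartiles 30.0 to 44.0 M). Lengths were from GENCODE M21. PCR reads are not independent molecules. Of 27179 Entrez identifiers, 25275 matched RefSeq of GRCm38.p6.

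Genes reaching 1 RPKM in 2 or more libraries were fitted with limma 3.58.1 in R 4.3.3 (4 group means, eBayes with trend), two-sided, passing at a Benjamini-Hochberg adjusted p under 0.05. The fit was tested on simulated data. All 6 members are named, with the 3 genes most like each, and from each list the passing genes and the 4 with the highest mean. Members and lists were chosen with earlier results of these data known. Alternatives changed the scaling, pseudocount, filter, trend, groups fitted, replicate block and libraries. One marker gene of the LTi lineage is not reported here.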

Additional observations from a re-analysis of the deposited data

How the results depend on the processing

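No member passed a genotype test under any of the alternatives run, with limma adjusted p from 0.197 to 1. Counts of passing genes moved. For genotype in PP, 38 genes passed (28 higher, 10 lower), which was 23 (11 and 12) under median-of-ratios rescaling, 76 with no filter, 138 with no trend, 0 with the PP groups alone, and 1 to 34 with a library left out. For genotype in LP, 3 became 0 with a pseudocount of 0.1, with no trend and with the LP groups alone, 56 with no filter, and 0 to 3 with a library left out. For the average effect, 16 became 10 with a pseudocount of 0.1, 36 with no filter, 0 with no trend, and 0 to 9 with a library left out. For the interaction, 3 became 10 with a pseudocount of 5, 36 with no filter, 0 with no trend, and 0 to 2 with a library left out. The cause was not tested.

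With the replicate number as a replicate block, these counts were 16, 0, 5 and 1. The labels do not say that the numbers pair samples, and deviations of same-numbered libraries had r of -0.0214 to 0.0103 between groups. Median-of-ratios rescaling moved the median of all genes for genotype in PP to -0.07, against 0.16 as deposited, and for the interaction to 0.18, against -0.39.

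Several small member effects changed sign with 1 library left out. The ranges were -0.48 to 0.50 for Egr1, -1.30 to 2.58 for Egr2 and -0.12 to 0.21 for Nr4a1 in LP, and -1.44 to 0.20 for Nr4a1 and -0.27 to 2.4 for Nr4a3 in PP. On average they were -0.64 to 1.30 for Egr2, -0.70 to 0.13 for Nr4a1, -0.51 to 0.15 for Nr4a2 and -0.50 to 0.84 for Nr4a3, and for the interaction -1.31 to 2.57 for Egr2 and -0.16 to 1.49 for Nr4a1. The average effect was 0.037 for Nr4a2 with a pseudocount of 0.1 and -0.071 for Nr4a3 with a pseudocount of 5. The average LP minus PP difference kept its sign under each alternative, at 4.41 to 5.23 for Nr4a1, 4.74 to 7.25 for Nr4a2, 4.12 to 6.45 for Nr4a3, 0.68 to 3.30 for Egr2 and -0.89 to -0.40 for Egr1. The alternatives for Ier5 in PP were chosen after seeing the data, and its difference stayed between 3.45 and 6.71.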
